A study of Homo sapiens with 9 samples.

Results

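The core of the RAS to ERK pathway was read at the level of its own transcripts in cultures of MDA-MB231, a human breast cancer line in long-standing laboratory use, on 9 Affymetrix PrimeView arrays. The list of core genes held 7: HRAS and NRAS, which encode RAS GTPases, BRAF and ARAF, which encode RAF kinases, MAP2K1 and MAP2K2, which encode the kinases MEK1 and MEK2, and MAPK3, which encodes ERK1. Genes were taken by name, and 5 of the 7, with 12 probe sets, had a probe set paired with that 1 symbol, against 18132 genes in all. NRAS and BRAF were not analysed here. HRAS had 2 probe sets, ARAF 5, MAP2K1 3 and MAP2K2 and MAPK3 1 each. Values are log2 levels, so a difference of 1 is a 2-fold change, and a gene is read from its brightest probe set, the one with the highest overall mean.

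All cultures were plated at 70% confluency in serum-containing medium and received fresh medium with their treatment on the next day, and RNA was taken 24 h later. The vehicle group (n = 4) received 0.1% DMSO, the BB94 group (n = 2) 10 µM BB94 and the PD325901 group (n = 3) 3 µM PD325901. The sources used here do not give the DMSO content of the inhibitor cultures. BB94, or batimastat, inhibits metalloproteinases, the proteases that cut receptors and ligands from the cell surface, and PD325901 inhibits MEK. The series asks how reduced shedding of receptor tyrosine kinases bears on resistance to kinase inhibitors, and the core genes encode the route by which those receptors reach ERK, including the target of PD325901 itself.

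In this pathway an activated receptor recruits exchange factors that load RAS with GTP, RAS-GTP brings RAF kinases to the membrane, RAF phosphorylates MEK, and MEK phosphorylates ERK. The pathway is mainly switched by GTP loading and phosphorylation, which a transcript level does not show. ERK in turn switches on the genes of its own inhibitors, such as DUSP6 and SPRY4, whose transcripts are a common readout of MEK inhibition.

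Of the mesenchymal markers VIM, CD44, CAV1, ZEB1 and SNAI2, all 5 lay above background on all 9 arrays. SNAI2 rose under both inhibitors, by 1.55 on the log2 scale under PD325901 (adjusted p = 7.2e-05 with limma) and 1.12 under BB94 (adjusted p = 0.025), and the other 4 were not called under either. Of the markers of leukocytes, endothelium, adipocytes and muscle (PTPRC, CD3E, CDH5, ADIPOQ and MYH2), 0 of 5 had a group mean above it. ESR1, PGR and CDH1 were also below background, while EPCAM, listed as low in this line, stood at 9.42 ± 0.11 (SD, n = 4) in control. CDH1 was called higher under PD325901 (adjusted p = 6.0e-06 with limma), though it lay below background on every array. ESR1, PGR and EPCAM were not called under either inhibitor. The ERK output genes DUSP6, SPRY4, ETV5 and CCND1 all fell under PD325901. The log2 changes of DUSP6, ETV5 and CCND1 were -4.35 to -3.29, and SPRY4, whose PD325901 mean lay below background, was at least 25.4-fold lower. The fall was uneven between the PD325901 arrays. In replicates 1 to 3 DUSP6 stood at 11.04, 8.99 and 8.02, ETV5 at 9.49, 8.01 and 7.71, and CCND1 at 9.58, 9.31 and 9.05. SPRY4 lay above background in replicate 1 alone, at 6.72. None of the 4 was called under BB94, where 0 had an unadjusted p under 0.05 and the log2 differences were -0.15 to 0.12. For DUSP6, SPRY4 and ETV5 that fit could hardly call a small change. Its spread is shared with the uneven PD325901 arrays, which gave SEs of 0.60, 0.38 and 0.37. Both BB94 arrays of ETV5 lay above all 4 controls, and 17.3% of all genes had groups that did not overlap in this comparison. The control arrays divided in a principal component analysis, with replicates 3 and 4 at -18.5 and -23.9 on the second component against 25 and 6.43 for replicates 1 and 2. The difference between the 3' and 5' probe sets of ACTB, a measure of RNA integrity, was 3.89 and 3.75 in control replicates 1 and 2, 3.46 and 2.96 in replicates 3 and 4, 3.91 and 4.22 under BB94 and 3.50 to 4.15 under PD325901. The PD325901 changes of HRAS, MAP2K1, MAP2K2 and MAPK3 are given with each pair of controls. Those of most other genes are given with all 4 controls only. SNAI2 divided likewise, at 8.45 and 8.39 in replicates 1 and 2 against 7.81 and 7.63 in replicates 3 and 4. So did SOS2 (9.69 and 9.46 against 9.11 and 8.91) and PDE6D (11.23 and 11.25 against 10.76 and 10.58), both described below. Other called genes around the core named below were split too. Replicates 3 and 4 both lay lower in GAB1 (7.80 and 7.82 against 7.43 and 7.53), NF1, RIT1, LAMTOR3, RPS6KA5, KSR2 and MAPK6. They both lay higher in MAP2K5 (7.62 and 7.85 against 8.19 and 8.19), RRAS, ICMT and CNKSR1.

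Under PD325901 the transcripts at the lower end of the pathway changed in opposite directions. MAP2K1 fell 1.36-fold, MAPK3 rose 1.49-fold and MAP2K2 rose 1.27-fold, while HRAS and ARAF were not called (limma, Benjamini-Hochberg over all genes, adjusted p under 0.05). Thus 3 of 5 core genes were called, 1 lower and 2 higher, where 35.1% of all genes tested were called, 22.8% higher and 12.3% lower. The MAP2K2 call was kept in 16 of 20 alternative settings, and those of MAP2K1 and MAPK3 in all 20. The changes were of ordinary size, since 25.5% of all genes had a larger absolute change than MAP2K1, 19.3% a larger one than MAPK3 and 32.1% a larger one than MAP2K2. The median of the 5 core genes was 0.14 on the log2 scale and that of all genes 0.08. Under BB94 0 of 5 core genes were called, against 1.58% of all genes, and 1 of the 5, MAP2K1, had an unadjusted p under 0.05, as did 10.9% of all genes.

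**Figure D1:**
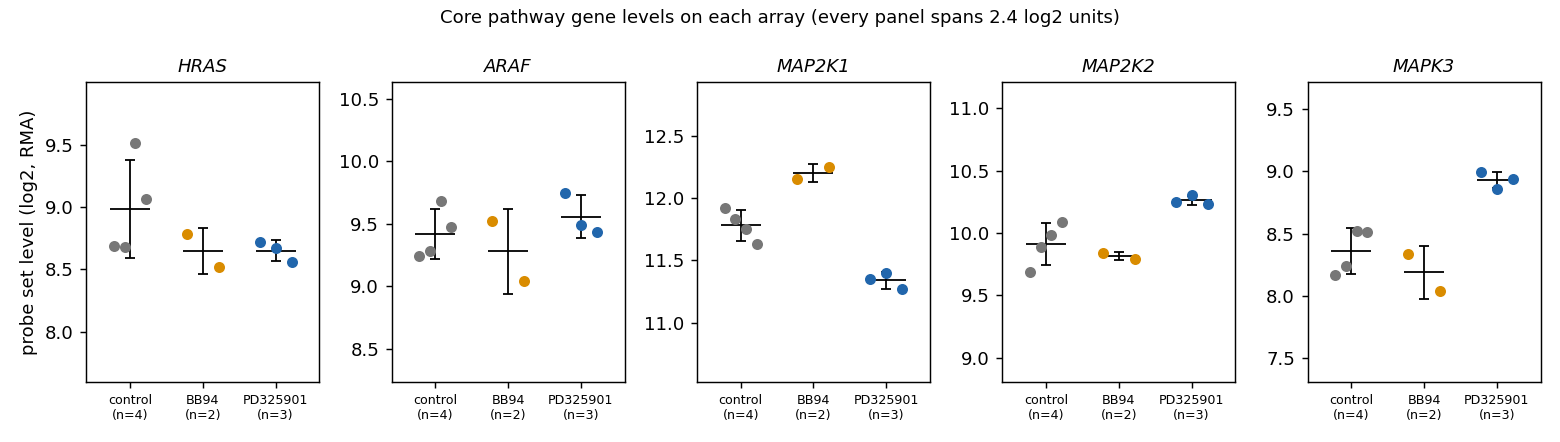
Log2 levels (vertical axes, RMA) of the 5 core genes on each array, grouped by treatment, with 1 point per array in order of replicate number and bars for the group mean ± SD. Every panel spans the same range, the PD325901 arrays of MAP2K1 sit below and those of MAP2K2 and MAPK3 above all other arrays, and the groups of HRAS and ARAF overlap.

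HRAS encodes one of the RAS GTPases that relay receptor signals to RAF. Its level in the control arrays was 8.69, 8.68, 9.51 and 9.06 in replicates 1 to 4. It was 8.78 and 8.52 in the BB94 arrays and 8.72, 8.67 and 8.56 in the PD325901 arrays. Both inhibitor groups lay close to control replicates 1 and 2 and below replicates 3 and 4, so that they overlapped the control group. The log2 change was -0.33 under PD325901 (SE 0.18, 95% interval -0.74 to 0.07, adjusted p = 0.202 with limma) and -0.34 under BB94 (SE 0.21, 95% interval -0.80 to 0.12, adjusted p = 0.652). The inhibitor groups had the same mean, 8.65, with a 95% interval of -0.48 to 0.49 for their difference. Against control replicates 3 and 4 alone HRAS was called lower under both, by 0.64 on the log2 scale each time (adjusted p = 0.00632 and 0.0394), and against replicates 1 and 2 alone the changes were -0.03 and -0.04. It was also called lower under PD325901 with arrays centred on their median (log2 -0.59, adjusted p = 0.0119) and with cyclic loess (log2 -0.51, adjusted p = 0.0339). The other probe set also set control replicates 3 and 4 above 1 and 2, at 8.44, 8.59, 9.42 and 8.99 in replicates 1 to 4, and gave log2 changes of -0.24 for both inhibitors.

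ARAF encodes a RAF kinase, the X-linked member of the family. Its level was 9.24, 9.28, 9.68 and 9.47 in control replicates 1 to 4, 9.52 and 9.04 under BB94 and 9.75, 9.49 and 9.43 under PD325901. All 3 groups overlapped. The log2 change was 0.14 under PD325901 (SE 0.15, 95% interval -0.18 to 0.46, adjusted p = 0.525) and -0.14 under BB94 (SE 0.17, 95% interval -0.51 to 0.23, adjusted p = 0.884). With arrays centred on their median the PD325901 change turned to -0.11. Of the other 4 probe sets, with control means from 5.46 to 8.24, none was called in any comparison, and the dimmest lay below background on every array.

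MAP2K1 encodes MEK1, one of the kinases that PD325901 inhibits. It stood at 11.92, 11.83, 11.75 and 11.63 in control replicates 1 to 4 and at 11.35, 11.40 and 11.27 under PD325901. All 3 treated arrays lay below all 4 controls, a separation found in either direction in 40.4% of all genes. The control mean was 11.78 ± 0.12 (SD, n = 4) and the PD325901 mean 11.34 ± 0.07 (SD, n = 3), a log2 change of -0.44 (SE 0.09, 95% interval -0.64 to -0.24, adjusted p = 0.00257 with limma). Its other probe sets fell further. The probe set 11749555_a_at had a control mean of 7.96 ± 0.17 (SD, n = 4) and was 1.81-fold lower under PD325901, at 7.11 ± 0.05 (SD, n = 3). For 11717291_a_at the means were 7.21 ± 0.10 (SD, n = 4) and 6.46 ± 0.09 (SD, n = 3), at least 1.67-fold lower, with 2 of 3 treated arrays above background. Both had an adjusted p of 1.5e-04 in a limma fit over all probe sets. The brightest, 11757478_s_at, has the suffix that Affymetrix gives to probe sets whose probes can match transcripts of more than 1 gene. The ARAF probe set used, 11728747_s_at, has it too, and the other MAP2K1 probe sets have the suffix for transcripts of 1 gene. The fall was called in all 20 alternative settings, with log2 changes of -0.69 to -0.35.

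Under BB94 the same gene lay on the other side of control. MAP2K1 stood at 12.15 and 12.25 in the BB94 arrays, above all 4 control arrays, a log2 difference of 0.42 (SE 0.10, 95% interval 0.19 to 0.64, 1.33-fold). The adjusted p was 0.0869, so the difference was not called, although only 4.38% of all genes had a larger absolute change under BB94. Groups that do not overlap were found in 17.3% of all genes in this comparison. Control replicates 1 and 2, at 11.92 and 11.83, lay closer to the BB94 arrays than replicates 3 and 4, at 11.75 and 11.63. Over 20 alternative settings the log2 difference ran from 0.32 to 0.51. The ACTB 3' to 5' difference was also higher in both BB94 arrays (3.91 and 4.22) than in any control array (2.96 to 3.89). It was 3.50 to 4.15 under PD325901, and its part in the MAP2K1 levels was not tested. All 3 MAP2K1 probe sets lay higher in both BB94 arrays than in any control array, with log2 differences of 0.42, 0.62 and 0.47. In a limma fit over all probe sets 11749555_a_at was called (adjusted p = 0.0386) and the others were not (adjusted p = 0.0981 and 0.0706). The gene was called in 6 of 20 alternative settings, among them the mean of its probe sets (log2 0.50, adjusted p = 0.0218), trend and robust variance estimates (adjusted p = 0.0349), leaving out control replicate 1 (adjusted p = 0.0405) and control replicates 3 and 4 alone (log2 0.51, adjusted p = 0.0164). The adjusted p over all 20 ran from 0.0164 to 0.634. Set against each other, the inhibitor groups differed 1.81-fold, with PD325901 lower (log2 -0.86, SE 0.11, adjusted p = 1.3e-04), in a comparison where 31.2% of all genes were called and the arrays of 60.8% did not overlap.

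**Figure D2:**
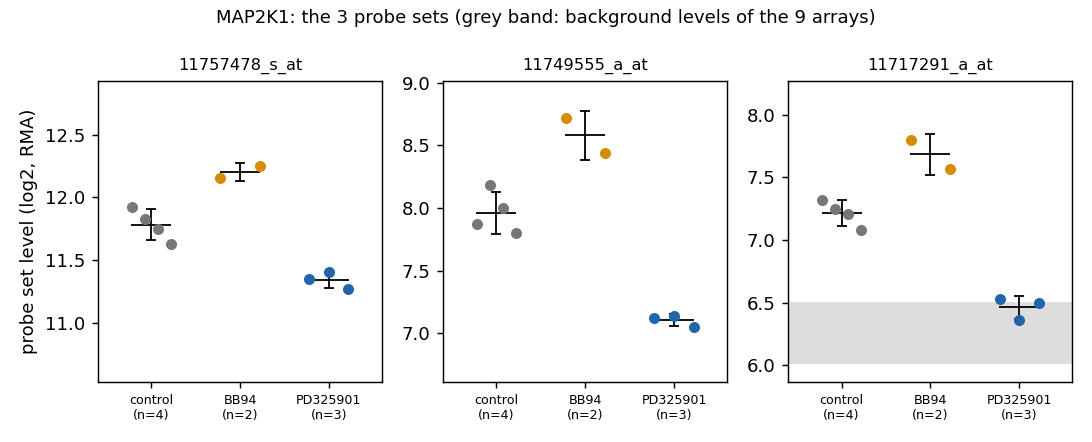
Log2 levels (vertical axes, RMA) of the 3 MAP2K1 probe sets on each array, with 1 point per array in order of replicate number, bars for the group mean ± SD, and in grey the range of background levels over the 9 arrays, which only the right panel reaches. In every panel the BB94 arrays lie above and the PD325901 arrays below the control arrays.

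MAP2K2 encodes MEK2, the other MEK kinase, and was measured by 1 probe set, whose suffix marks probes that can also match other transcripts. It stood at 9.69, 9.89, 9.98 and 10.09 in control replicates 1 to 4, at 9.84 and 9.79 under BB94 and at 10.25, 10.30 and 10.23 under PD325901. The PD325901 arrays lay above all others, and the BB94 arrays lay within the control range. In 40.4% of all genes the PD325901 arrays lay apart from all controls in either direction. The log2 change under PD325901 was 0.35 (SE 0.10, 95% interval 0.13 to 0.57, adjusted p = 0.017), and that under BB94 -0.10 (SE 0.11, 95% interval -0.34 to 0.15, adjusted p = 0.881). PD325901 lay 1.36-fold above BB94 (log2 0.44, SE 0.12, adjusted p = 0.014). The rise depended on the scaling of the arrays. With arrays centred on their median, which moved the median change of all genes from 0.08 to -0.17, it was 0.10 (adjusted p = 0.496), and with cyclic loess 0.24 (adjusted p = 0.0864). It was also not called without PD325901 replicate 1 (adjusted p = 0.0504) or replicate 2 (adjusted p = 0.0691), within a range of 7.7e-04 to 0.496 over 20 alternatives. The difference from BB94 was likewise not called with centred arrays (log2 0.12), with cyclic loess (0.32) or without BB94 replicate 1 (adjusted p = 0.0603) or replicate 2 (adjusted p = 0.0926), within a range of 9.0e-04 to 0.482 over 18 alternatives.

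The opposite changes of the MEK genes were compared within each array, where a scaling of the whole array cancels. The log2 level of MAP2K1 minus that of MAP2K2 was 2.23, 1.95, 1.77 and 1.54 in control replicates 1 to 4, 2.31 and 2.46 under BB94 and 1.11, 1.10 and 1.04 under PD325901. The groups did not overlap, with PD325901 lowest and BB94 highest. The control mean of 1.87 ± 0.29 (SD, n = 4) compares with 1.08 ± 0.04 (SD, n = 3) under PD325901, a change of -0.79, and with 2.38 ± 0.10 (SD, n = 2) under BB94, a change of 0.51. The two-sided exact permutation p was 0.0571 and 0.133, in each case the smallest that these group sizes allow, and 0.114 and 0.133 after Benjamini-Hochberg adjustment over the 2 tests. The difference shows unequal change of the probe sets and not the proportion of MEK1 to MEK2. How many other gene pairs separate the groups in this way was not computed. Over the control and BB94 arrays this difference had the same order as the ACTB 3' to 5' difference. The latter was 3.89, 3.75, 3.46 and 2.96 in control replicates 1 to 4 and 3.91 and 4.22 under BB94. Under PD325901 it was 3.50 to 4.15. Its part in the difference of the MEK genes was not tested.

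MAPK3 encodes ERK1, the kinase that MEK phosphorylates. It was measured by 1 probe set with the same suffix as that of MAP2K2. It stood at 8.17, 8.24, 8.52 and 8.51 in control replicates 1 to 4, at 8.34 and 8.04 under BB94 and at 8.99, 8.86 and 8.94 under PD325901. The PD325901 arrays lay above all others and the BB94 arrays overlapped the controls. PD325901 arrays apart from all controls, in either direction, were found in 40.4% of all genes. The mean was 8.36 ± 0.18 (SD, n = 4) in control and 8.93 ± 0.07 (SD, n = 3) under PD325901, a log2 change of 0.57 (SE 0.11, 95% interval 0.32 to 0.83, adjusted p = 0.00248 with limma). The call held in all 20 alternatives, with changes of 0.32 to 0.73, and the smallest was with arrays centred on their median (adjusted p = 0.0308). Under BB94 the change was -0.17 (SE 0.13, 95% interval -0.46 to 0.12, adjusted p = 0.757), and PD325901 lay 1.68-fold above BB94 (log2 0.74, SE 0.14, adjusted p = 0.00173).

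**Figure D3:**
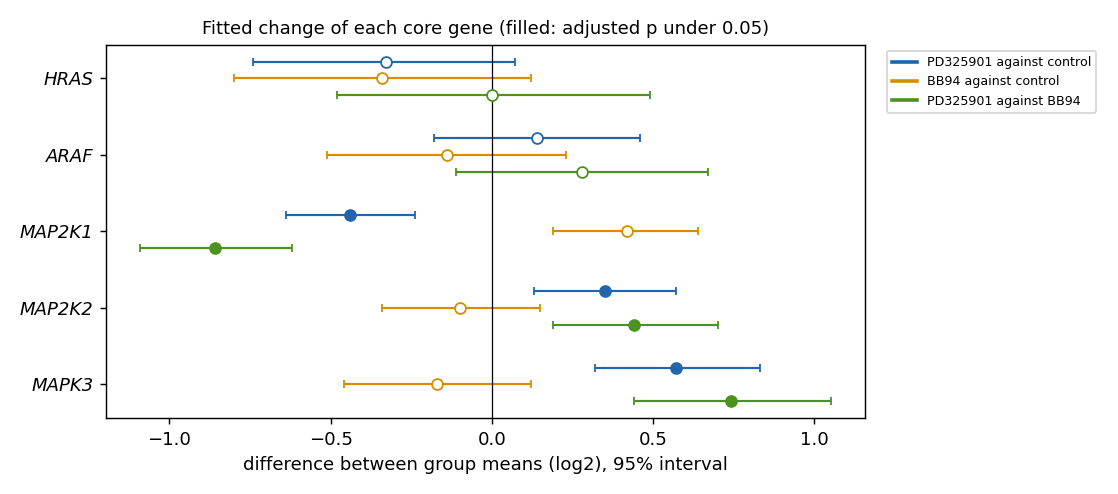
Fitted log2 differences between group means (horizontal axis) of the 5 core genes with 95% intervals, coloured by comparison, with filled points for an adjusted p under 0.05. The filled points are those of MAP2K1, at -0.44 and -0.86, MAP2K2, at 0.35 and 0.44, and MAPK3, at 0.57 and 0.74, all in comparisons that include PD325901.

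The DNA before the start sites of the 3 genes called under PD325901 is shown to set the gene that fell beside those that rose. Each run is the 250 bases before the outermost RefSeq start of the gene in build GRCh38.p14, written 5' to 3' on the gene's strand, with capitals for the GC box, GGGCGG or on the other strand CCGCCC, which SP family factors bind, and for the E box, CACGTG on both strands.
MAP2K1, chr15:66386662-66386911, plus strand: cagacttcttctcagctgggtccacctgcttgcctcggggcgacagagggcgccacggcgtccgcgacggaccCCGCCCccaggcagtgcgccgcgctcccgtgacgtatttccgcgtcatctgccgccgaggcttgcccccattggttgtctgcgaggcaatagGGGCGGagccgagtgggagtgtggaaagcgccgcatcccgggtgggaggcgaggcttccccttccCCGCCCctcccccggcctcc
MAP2K2, chr19:4124123-4124372, minus strand: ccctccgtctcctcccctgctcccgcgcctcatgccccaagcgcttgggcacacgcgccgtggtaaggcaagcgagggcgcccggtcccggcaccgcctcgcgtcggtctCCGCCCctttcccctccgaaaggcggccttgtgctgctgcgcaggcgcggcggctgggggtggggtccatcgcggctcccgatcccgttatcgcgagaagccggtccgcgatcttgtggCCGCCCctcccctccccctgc
MAPK3, chr16:30123221-30123470, minus strand: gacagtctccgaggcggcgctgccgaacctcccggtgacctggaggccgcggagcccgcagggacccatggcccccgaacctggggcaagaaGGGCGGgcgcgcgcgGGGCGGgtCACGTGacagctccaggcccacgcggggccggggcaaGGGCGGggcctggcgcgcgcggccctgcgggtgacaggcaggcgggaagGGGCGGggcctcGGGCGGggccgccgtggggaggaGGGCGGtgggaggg
The MAP2K1 window held 3 GC boxes, the MAP2K2 window 2 and the MAPK3 window 6, and their GC contents were 71.2%, 74.0% and 80.4%. A GC box lay in 42.6% of the 35116 windows of this length in the RefSeq promoter table. The MAPK3 window also held 1 E box, 135 bases before the start, a motif found in 6.34% of all windows. The motif CCGGAA, or TTCCGG on the other strand, which ETS factors bind and which lay in 14.5% of all windows, had no match in the 3 windows. The shorter ETS core within it, GGAA, was not counted. The matches describe these letters and are not measured binding, and no motif was tested against the changes.

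The 4 controls were not alike for these genes. In HRAS, ARAF, MAP2K2 and MAPK3 replicates 3 and 4 both lay above replicates 1 and 2, and in MAP2K1 both lay below. Such a split was found in 62.1% of all genes, with replicates 3 and 4 higher in 21.0% and lower in 41.1%. In MAP2K1, MAP2K2 and MAPK3 the PD325901 arrays lay beyond both pairs of controls, a separation found in either direction in 40.4% of all genes. The ACTB 3' to 5' difference also separated these pairs, and its part in the levels was not tested. In the fit without replicates 3 and 4 the PD325901 changes were -0.53 for MAP2K1, 0.47 for MAP2K2 and 0.73 for MAPK3, and without replicates 1 and 2 they were -0.35, 0.23 and 0.42.

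Genes with the most similar pattern over the 9 arrays were found for the 3 called core genes, among 10044 other genes above background on every array, by Pearson's r as a description. The r of a gene whose PD325901 arrays stand apart from the rest largely reflects that separation. Closest to MAP2K1 were FKBP5, a chaperone gene induced by glucocorticoids (r = 0.987), and IFNLR1, a receptor chain for interferon lambda (r = 0.986). Like MAP2K1 they lay lower under PD325901, with log2 changes of -0.59 and -0.68, and higher under BB94, with 0.59 and 0.56. Closest to MAP2K2 were PARS2, a mitochondrial prolyl-tRNA synthetase gene (r = 0.992), and PCCB, a subunit of propionyl-CoA carboxylase (r = 0.990). Closest to MAPK3 were DNAJC4 and TAP1, a peptide transporter gene of antigen presentation (r = 0.993 each), with PD325901 changes of 1.12 and 0.40.

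Around the core, 60 of 67 listed genes of 7 pathway roles were measured. Under PD325901 18 were called higher, 12 lower and 30 not, or 50% called against 35.1% of all genes, and their median change was 0.05. With arrays centred on their median the counts were 9 higher and 28 lower, so the balance of directions rests on the scaling. Centring lowers every PD325901 change by the same amount, so rises became smaller and falls larger. Under BB94 0 of the 60 were called with limma and 9 of the 60 had an unadjusted p under 0.05, as did 10.9% of all genes. The values below are PD325901 changes on the log2 scale with limma's adjusted p, for up to 3 called genes of each role with the largest change.

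Among 11 adaptors and RAS exchange factors, 4 rose and 1 fell. RASGRP3, an exchange factor gene responsive to diacylglycerol, went from 5.91 in control, below background, to 6.91, at least 1.62-fold higher (adjusted p = 7.0e-06), and was called with a smaller fitted change, log2 0.58, for the mean of its probe sets. SOS2, an exchange factor recruited by GRB2, rose by 0.76 (adjusted p = 0.00467) and the docking protein gene GAB1 by 0.48 (adjusted p = 0.00791), though GAB1 was not called with centred arrays (log2 0.23) or cyclic loess (0.26). Of 5 GTPase-activating protein genes, which switch RAS off, NF1 rose by 0.64 (adjusted p = 0.0014) and RASA2 and RASA3 fell, with changes of -0.49 and -0.31. NF1 had a change of 0.17 and was not called with the mean of its probe sets (adjusted p = 0.233), nor was RASA3 (-0.20, adjusted p = 0.117), which also missed the threshold when PD325901 replicate 3 was left out (adjusted p = 0.0905) or with control replicates 1 and 2 alone (adjusted p = 0.0521).

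Of 6 other RAS family GTPases, 3 rose and 1 fell. MRAS, which forms a phosphatase complex with SHOC2 that acts on RAF, stood at 9.02, 9.25, 9.24 and 8.76 in control and at 10.23, 10.10 and 10.04 under PD325901. All treated arrays lay above all controls, a 2.08-fold rise (log2 1.06, SE 0.13, adjusted p = 9.9e-05). Such a separation was found in either direction in 40.4% of all genes. RRAS rose by 0.65 and RIT1 by 0.58, the latter not called with centred arrays (0.33, adjusted p = 0.0831) or without PD325901 replicate 1 (adjusted p = 0.0561). Of 13 scaffolds and regulators of RAF or MEK, 3 rose and 2 fell. CNKSR2, a scaffold of the pathway, stood at 9.07 to 9.17 in control and at 7.78 to 8.04 under PD325901, a 2.34-fold fall (log2 -1.22, adjusted p = 1.7e-06), which was -0.52 for the mean of its probe sets and still called. LAMTOR3, a scaffold that binds MEK1 and ERK1, rose by 0.51 (adjusted p = 9.4e-04), but was not called with centred arrays (0.25, adjusted p = 0.0697). CNKSR1 and KSR2, the other genes called higher, lay below background on every array, and KSR2 is named here after its values were seen. CNKSR1 was not called when control replicate 2 (adjusted p = 0.0643), PD325901 replicate 1 (adjusted p = 0.115) or PD325901 replicate 3 (adjusted p = 0.0563) was left out, nor with centred arrays (log2 0.13) or cyclic loess (0.21).

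Of 7 genes of RAS lipid processing, 2 rose and 2 fell. ICMT, the methyltransferase that completes the RAS C terminus, had a change of -0.67 (adjusted p = 2.4e-04), and PDE6D, a carrier of prenylated proteins, one of 0.68 (adjusted p = 0.00579, and 0.0531 with centred arrays). LYPLA1, a depalmitoylating enzyme gene, was above background in 2 of 3 treated arrays and fell at least 1.45-fold. Of 8 ERK substrate kinases, 3 rose and 2 fell. RPS6KA2, which encodes an RSK kinase, stood at 7.57 to 7.81 in control and at 8.91 to 9.05 under PD325901, a 2.46-fold rise (log2 1.30, adjusted p = 1.9e-05), which was 0.71 for the mean of its probe sets and still called. MKNK1 rose by 0.54, with 0.17 and no call for the mean of its probe sets, and RPS6KA5 had a change of -0.63.

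Of 10 kinases of the parallel MAP kinase cascades, 2 rose and 2 fell. MAP2K6, an activating kinase of p38, had the largest change of the 60 genes by the probe sets used. It stood at 5.31 to 5.57 in control, below background on all 4 arrays, and at 8.34, 8.09 and 8.33 under PD325901, at least 4.13-fold higher (adjusted p = 1.9e-08). For the mean of its probe sets the fitted log2 change was 1.68 in place of 2.77, also called. Under BB94 it stood at 4.99 and 5.05, also below background. MAP2K5, an activating kinase of ERK5, rose by 0.82 (adjusted p = 8.7e-04), and by 0.28 for the mean of its probe sets, also called. MAPK6, above background in 4 of 4 control arrays and 0 of 3 treated ones, fell at least 1.01-fold and was not called without PD325901 replicate 1 (adjusted p = 0.0561) or replicate 3 (adjusted p = 0.0636).

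**Figure D4:**
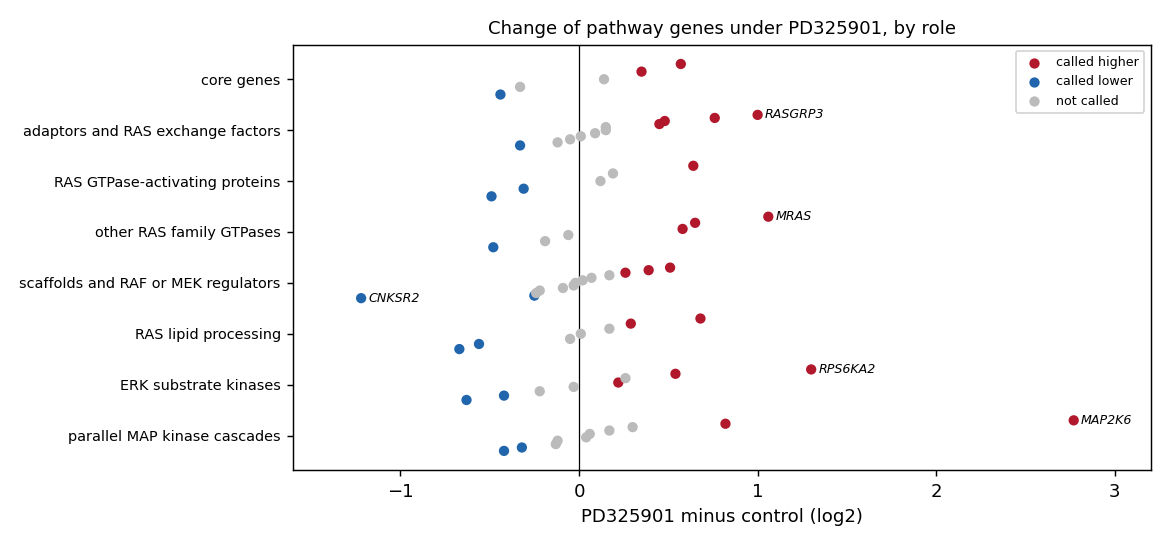
Log2 difference of PD325901 from control (horizontal axis) for each measured core gene and each gene of the 7 role lists (rows), with 1 point per gene, red for called higher, blue for called lower and grey for not called, and names for changes of at least 1. Called genes lie on both sides of 0 in every row, and MAP2K6 lies farthest from 0, at a fitted difference of 2.77 that rests on control values below background. Points are fitted differences also where a group lay below background.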

How the data were processed

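The deposited values are log2 probe set levels made by the authors with RMA, as run by the Bioconductor package affy, per the series design text, from 9 arrays. RMA subtracts a modelled background, sets all arrays to 1 distribution of probe values and summarises each probe set. The affy version and any batch are not given in the sources used here. Values were used as deposited, without further scaling.

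Of 49395 probe sets, 102 were Affymetrix controls and left out. The platform annotation paired 44988 with 1 symbol, 1832 with several and listed none for 2473. The probe set of highest overall mean was used for a gene. Background on an array is the highest of its 23 background probe sets (6.02 to 6.50), a strict floor. Below it a change is a bound, "at least N-fold": the mean of the brighter group over that of the dimmer one after dim values were raised to the background of their array.

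Differences were tested with limma 3.58.1 (R 4.3.3, lmFit and eBayes, a coefficient per group over all 9 arrays, 6 residual degrees of freedom, two-sided), with Benjamini-Hochberg adjustment over all 18132 genes and calls under 0.05. The fit was tested on simulated data. The number of arrays limits the precision. The labels call the samples biological replicates without naming separate cultures, so p-values measure the spread between these samples. The core genes, role lists and rule for named genes (all core genes, up to 3 called genes of each role for PD325901 and up to 2 for BB94, 4 ERK output genes and the 2 most correlated genes of each called core gene) were chosen with earlier results of these data known. Alternatives covered the probe set rule, a filter, the variance estimate, array weights, scaling, the replicate block, the samples in the fit and leaving out arrays. Promoter sequences are RefSeq's, and 3 of 3 genes sought had one. Both inhibitors were compared with the same 4 control arrays.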

Additional observations from a re-analysis of the deposited data

How the results depend on the processing

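Among the 5 core genes, the calls of MAP2K1 and MAPK3 under PD325901, and against BB94, held in all alternatives run (20 and 18), and no call of a core gene changed direction. The count of called core genes under PD325901 was 2 to 3 with each array left out in turn, and 4 with control replicates 3 and 4 alone. With centred arrays or cyclic loess it was 3, with HRAS in place of MAP2K2. Under BB94 it rose from 0 to 1 with the mean of probe sets, trend and robust settings, array weights or cyclic loess, to 2 with control replicates 3 and 4 alone, and was 0 to 1 with each array left out. The count of all genes called under BB94, 286 in the reported fit, was 697 over all probe sets, 469 with array weights, 161 with the replicate block, 140 with only the 2 groups compared, 1633 with control replicates 3 and 4 alone and 62 to 367 with each array left out, lowest without BB94 replicate 2 (62) and replicate 1 (116). Over all probe sets, of which there are more, 13445 were called for PD325901 and 11841 for PD325901 against BB94, in place of 6365 and 5652. With centred arrays 31.7% of the genes called under PD325901 were higher, against 65.1%, 45.3% against 31.1% under BB94, and 28.4% against 67.3% between the inhibitors. In each case the cause was not tested. Without 1 BB94 array the other is assumed to vary like the other groups.

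The replicate numbers were not taken as pairs in the reported fit. Deviations from the group means correlated at -0.19 to 0.12 between same-numbered arrays and at -0.27 to 0.27 between differently numbered ones. Deviations within a group sum to 0, so with groups this small these correlations cannot decide whether the arrays were paired. The replicate block gave 5950 called genes for PD325901, 161 for BB94 and 5756 between the inhibitors, and called 3, 0 and 3 core genes. The change of MAP2K1 minus MAP2K2 was -0.90 to -0.67 under PD325901 and 0.40 to 0.63 under BB94 with an array left out. Only MAP2K1 and MAP2K2 were compared as paralogues, since NRAS and BRAF were not analysed here. Of 420 alternative values of the named role list genes under PD325901, 401 kept their side of the threshold and 19 lost the call. With the 95th percentile of the background probe sets as background, 11 core gene probe sets lay above it on every array, against 10.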
